A study of Mus musculus with 24 samples.

Results

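Bone morphogenetic protein (BMP) ligands, a BMP receptor, the SMAD proteins that carry and restrain the BMP signal, and the ID genes that respond to it were followed in R1 mouse embryonic stem (ES) cells depleted of either of 2 subunits of the Mediator complex, CDK8 and MED12. The 9 genes are the ligands Bmp4 and Bmp7, the receptor Bmpr1a, the signal carrier Smad1, the inhibitor Smad6 and the targets Id1, Id2, Id3 and Id4. They were found by matching the transcript accession of each array probe to these symbols, which gave 15 probes among 41174 on the array. All 15 probes were kept, and the 9 genes are 9 of the 22394 genes tested.

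R1 is an established mouse ES cell line, and its cells were infected with a lentivirus carrying a short hairpin RNA. The hairpin was a non-targeting control (shNTC) or was directed against Cdk8, in the versions shCdk8-1 and shCdk8-2, or against Med12, in the versions shMed12-1 and shMed12-2. There were 8 groups of 3 arrays. RNA was taken 8 days after infection from cells with shNTC or either Cdk8 hairpin, and 13 days after infection from cells with any of the 5 hairpins. All groups share the parental line and a viral infection, no uninfected group is used here, and the labels name neither the promoter of the hairpins nor a selection step. The labels call the replicates biological without saying whether cultures or infections were separate, so the p-values below measure the spread between these arrays. On each 2-colour array the Cy5 dye marked RNA of the cells and Cy3 marked a universal reference RNA pooled from several mouse cell lines. A level below is the log2 ratio of Cy5 over Cy3 for 1 probe, so 0 means as bright as the reference, and levels of different genes are not comparable.

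BMP ligands are secreted dimers that bring together type I receptors, among them BMPR1A, and type II receptors at the cell surface. The receptors phosphorylate SMAD1 and its relatives, which join SMAD4 and enter the nucleus, while SMAD6 holds the pathway back. The ID genes are classical direct targets, and ID proteins bind E proteins such as TCF3 and TCF12 and keep them off DNA. In mouse ES cells, BMP4 with leukaemia inhibitory factor sustains self-renewal in part through the ID proteins. CDK8 and MED12 belong to the kinase module of Mediator, which connects transcription factors with RNA polymerase II.

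The targeted transcripts were lower in the cells labelled as depleted. Cdk8 was lower than in shNTC cells by a log2 difference of -0.71 with shCdk8-1 and -0.31 with shCdk8-2 on day 8, and by -0.95 and -0.64 on day 13. Med12 was lower by -1.0 with shMed12-1 and -0.88 with shMed12-2. Med12 was also higher with both Cdk8 hairpins on day 8, by 0.25 (adjusted p = 0.029) and 0.34 (adjusted p = 0.0051). Between 48.9% (replicate 3 of shCdk8-2, day 13) and 76.1% of spots per array were well above background in Cy5, and no spot was saturated. The log2 ratios of 2 arrays were compressed. Their slopes on the mean of the other replicates of their group were 0.785 (replicate 1 of shCdk8-1, day 8) and 0.792 (replicate 3 of shMed12-1), against 0.969 to 1.12 on the other 22 arrays. Without background subtraction the pair had slopes of 0.957 and 1.01. Leaving out both arrays ended 2 of 67 calls on members over all comparisons and added several others, and those values are given beside the results they touch. Of 13 ES cell markers listed, 11 were measured, and all of those, Pou5f1, Sox2 and Zfp42 among them, were well above background on the 6 shNTC arrays. The arrays lay on 8 slides, lettered A to H here, and a few comparisons could also be made within a slide. All 6 Med12 arrays, and no others, were at position 4 of their slide, so Med12 knockdown and position cannot be told apart in any comparison with shNTC or with Cdk8 knockdown, within a slide included.

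The question is whether depletion of either subunit changes these genes. To answer it, hairpin groups were set against the shNTC group of their own day in 1 limma fit over all 24 arrays, with Benjamini-Hochberg adjustment over all 22394 genes and a threshold of 0.05. On day 8, 5 of the 9 genes passed with shCdk8-1, beside 16.9% of all genes tested: 4 were higher, beside 8.64%, and 1 was lower, beside 8.22%. With shCdk8-2 on day 8, 3 passed, beside 14%: none was higher, beside 7.39%, and 3 were lower, beside 6.62%. On day 13, 3 passed with shCdk8-1, beside 12.6%: 2 were higher, beside 6.5%, and 1 was lower, beside 6.1%. With shCdk8-2 on day 13, 4 passed, beside 11.6%: 3 were higher, beside 5.86%, and 1 was lower, beside 5.69%. With shMed12-1, 5 passed, beside 24.9%: 4 were higher, beside 12.9%, and 1 was lower, beside 12%. With shMed12-2, 3 passed, beside 17.8%: 2 were higher, beside 9.04%, and 1 was lower, beside 8.77%. The comparisons of 1 day share their 3 shNTC arrays. Arrays that did not overlap were common. All 3 hairpin arrays lay above the controls in 15.8% and 17.5% of all genes with shCdk8-1 and shCdk8-2 on day 8. On day 13 this held in 17.7% and 16.9% with the Cdk8 hairpins and 21% and 21.6% with shMed12-1 and shMed12-2. They lay below in 15.1%, 16.5%, 18.2%, 17.4%, 21.4% and 21.7%, in the same order. These shares apply to each statement below on 3 arrays against 3. The calls lay mostly at the ends of the pathway, in Bmp4 and the ID genes, and neither Bmpr1a nor Smad1 passed in any of the 6 comparisons.

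A pair of settings ended many of these 23 calls, and no call changed direction under any setting tried. With median centring of the arrays in place of loess, 8 of the 23 were kept: Id1, Id2 and Id4 with shCdk8-1 on day 8, Bmp4 with shCdk8-2 on day 8, Id4 with shCdk8-1 on day 13, and Id1, Id2 and Id3 with shMed12-1. With the slide as a block in the fit, 14 of the 23 were kept, and the calls it ended are given beside the genes below.

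**Figure D1:**
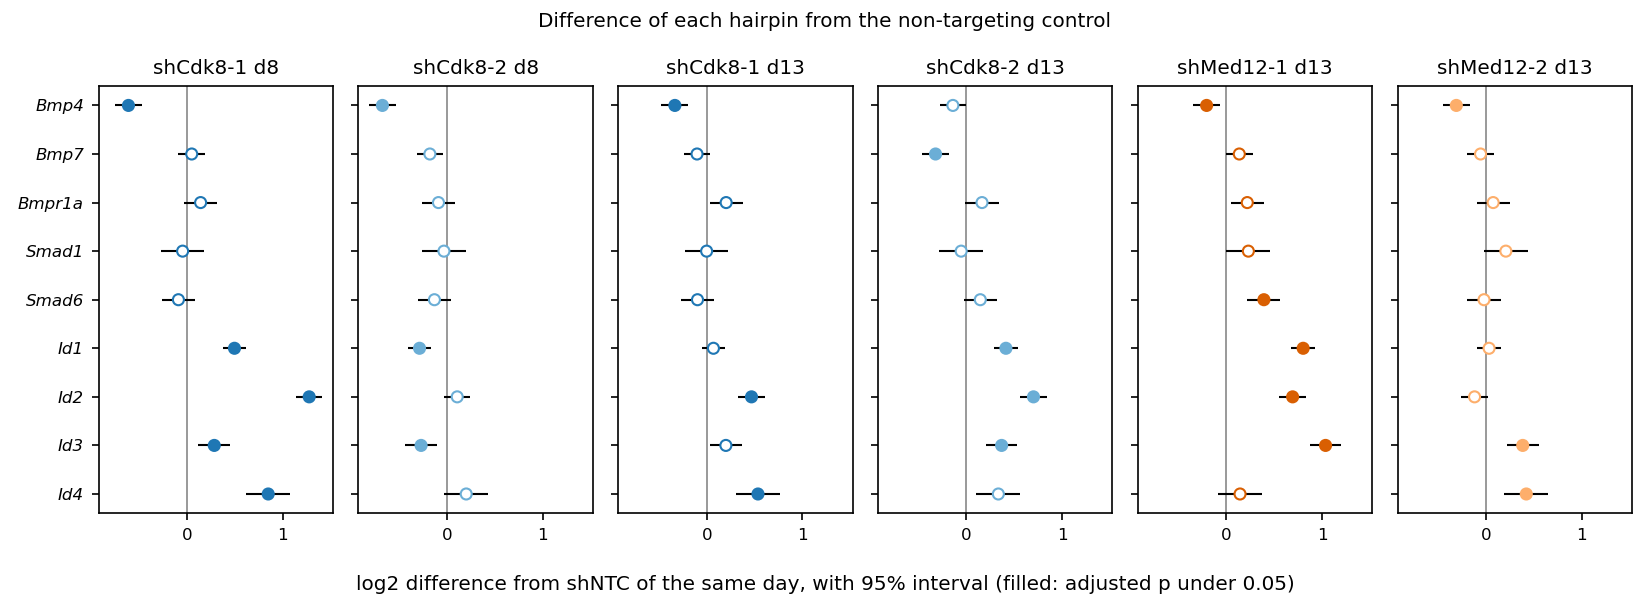
Log2 difference of each of the 9 genes (rows) from shNTC of the same day, 1 panel for each hairpin and day (d8, d13), with 95% intervals from the limma fit; filled points have an adjusted p under 0.05. Bmp4 lies below 0 in all 6 panels, and the ID genes lie furthest above 0 with shCdk8-1 on day 8 (Id2, 1.27) and with shMed12-1 (Id3, 1.04).

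A stricter count asks which genes passed with both hairpins against the same target in the same direction. After Cdk8 knockdown on day 8 this was 1 of 9, Bmp4 (lower), beside 5.1% of all genes (2.78% higher, 2.32% lower). A further 2 genes, Id1 and Id3, passed with both hairpins in opposite directions, which 0.514% of all genes did. After Cdk8 knockdown on day 13 it was 1 of 9, Id2 (higher), beside 4.22% of all genes (2.37% higher, 1.85% lower), and no member passed in opposite directions, which 0.388% of all genes did. After Med12 knockdown it was 2 of 9, Id3 (higher) and Bmp4 (lower), beside 8.6% (4.79% higher, 3.82% lower), and again no member in opposite directions, beside 1%. Tested as the mean of both hairpins, 3 of 9 passed on day 8, beside 14.5%: Id2 and Id4 were higher, beside 7.6%, and Bmp4 was lower, beside 6.91%. On day 13, 6 passed after Cdk8 knockdown, beside 12.4%: the 4 ID genes were higher, beside 6.25%, and Bmp4 and Bmp7 were lower, beside 6.14%. After Med12 knockdown 5 passed, beside 20.7%: the 4 ID genes were higher, beside 10.5%, and Bmp4 was lower, beside 10.2%. Several of these genes passed with 1 hairpin only. On day 8 Id2 and Id4 passed with shCdk8-1 alone. On day 13 Id4 and Bmp4 passed with shCdk8-1 alone and Id1, Id3 and Bmp7 with shCdk8-2 alone. Id1 and Id2 passed with shMed12-1 alone and Id4 with shMed12-2 alone. With the slide as a block, means that lost their call were also those of Id3 (0.23, adjusted p = 0.19) and Id4 (0.53, adjusted p = 0.064) after Cdk8 knockdown on day 13 and Bmp4 (-0.19, adjusted p = 0.18) after Med12 knockdown. From the Cy5 channel alone the Id3 mean after Cdk8 knockdown on day 13 was 0.22 (adjusted p = 0.063), while the Id1 mean on day 8 passed (0.40, adjusted p = 0.011). Without the compressed arrays, the means on day 8 were 0.66 for Id2, 0.59 for Id4 and -0.68 for Bmp4, and after Med12 knockdown 0.40 for Id1, 0.27 for Id2, 0.70 for Id3, 0.35 for Id4 and -0.29 for Bmp4, all of them still called. The median difference over the 9 genes, as the mean of both hairpins, was 0.01 on day 8 after Cdk8 knockdown, 0.18 on day 13 after Cdk8 knockdown and 0.22 after Med12 knockdown, against medians of 0.00 over all genes in each of them.

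Bmp4 encodes the ligand that supports ES cell self-renewal and, later, mesoderm formation. The gene lies at chr14:46383525-46390669 on the minus strand of GRCm38.p6, and its probe (A_51_P383741) was printed as 10 spots per array. Because Bmp4 was the member that fell with both Cdk8 hairpins, the 250 bases before its RefSeq start (GRCm38.p6, chr14:46390670-46390919, minus strand) are shown 5′ to 3′, with capitals marking the GC-rich hexamer GGAGCC, one of the sequences that SMAD1 is known to bind, here in its reverse complement GGCTCC.
Bmp4: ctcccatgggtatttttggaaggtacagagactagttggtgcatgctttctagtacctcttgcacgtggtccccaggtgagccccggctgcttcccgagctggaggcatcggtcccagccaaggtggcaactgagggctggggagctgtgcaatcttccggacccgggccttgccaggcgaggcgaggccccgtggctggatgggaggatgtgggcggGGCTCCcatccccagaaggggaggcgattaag
This hexamer was searched on both strands and stood in 26.0% of 32851 windows of this length in the RefSeq promoter table. The window holds 1 match, and none to the palindrome GGCGCC, to the SMAD box CAGACA or to the TATA sequence TATAAA. A match is a description of letters only.

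On day 8 the Bmp4 log2 ratio was -0.55, -0.54 and -0.56 on the 3 shNTC arrays. It was -1.01, -1.24 and -1.23 with shCdk8-1 and -1.24, -1.26 and -1.17 with shCdk8-2. All 6 knockdown arrays lay below all 3 control arrays, beside 6.17% of all genes, and the hairpin groups overlapped each other. The difference from shNTC was -0.61 ± 0.07 (SE, 3 arrays against 3, adjusted p = 2.4e-06) with shCdk8-1, a 1.53-fold lower level, and -0.67 ± 0.07 (adjusted p = 9.7e-07) with shCdk8-2, 1.60-fold lower. With median centring the shCdk8-1 difference was -0.51 (adjusted p = 0.067). Without the compressed arrays the shCdk8-1 difference was -0.69 (adjusted p = 1.7e-07). On slide A, which held arrays of both groups, shCdk8-2 differed from shNTC by -0.62.

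On day 13 the Bmp4 log2 ratio was -0.62, -0.72 and -0.70 with shNTC, -1.02, -1.03 and -0.97 with shCdk8-1 and -0.91, -0.86 and -0.69 with shCdk8-2. Arrays of shCdk8-1 lay below the controls, while 1 shCdk8-2 array, replicate 3, lay among them. That array had the lowest share of spots well above background of the 24, 48.9%. The difference was -0.33 ± 0.07 (adjusted p = 0.0019) with shCdk8-1 and -0.14 ± 0.07 (adjusted p = 0.20) with shCdk8-2, with a 95% interval of -0.28 to -0.00 for the latter. By the Feature Extraction ratios the shCdk8-2 difference of Bmp4 passed (-0.20, adjusted p = 0.012), as it did by the deposited value table (-0.19, adjusted p = 0.017). As a mean of both hairpins it was -0.24 (adjusted p = 0.0092), and -0.21 (adjusted p = 0.074) without replicate 1 of shNTC on day 13. With the slide as a block the shCdk8-1 difference was -0.23 (adjusted p = 0.27) and the mean -0.17 (adjusted p = 0.32). The fall of Bmp4 was smaller on day 13 than on day 8: the difference between the days, tested as an interaction of day and hairpin, was 0.41 ± 0.08 (95% interval 0.23 to 0.58, adjusted p = 0.0087). It was 0.46 (adjusted p = 0.057) with the slide as a block. It was 0.44 (adjusted p = 0.00038) without the compressed arrays. Id3 passed without shCdk8-1 day 8 replicate 1 (0.33, adjusted p = 0.026), and by the Feature Extraction ratios (0.32, adjusted p = 0.015). With all arrays Bmp4 was the 1 member of 9 to pass this test, beside 2.37% of all genes (1.45% higher, 0.92% lower).

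With the Med12 hairpins Bmp4 was -0.89, -0.98 and -0.77 on the shMed12-1 arrays and -0.94, -0.98 and -1.04 on the shMed12-2 arrays. All 6 lay below the day 13 controls, beside 10.2% of all genes. The difference from shNTC was -0.21 ± 0.07 (adjusted p = 0.030) with shMed12-1 and -0.31 ± 0.07 (adjusted p = 0.0023) with shMed12-2. Within slides A and B, shMed12-2 differed from shNTC by -0.23 and -0.28. The shMed12-1 call is near the threshold: it was lost without shNTC day 13 replicate 1 (-0.18, adjusted p = 0.12) or replicate 3 (-0.21, adjusted p = 0.059), without shMed12-1 replicate 1 (-0.20, adjusted p = 0.071) or replicate 2 (-0.15, adjusted p = 0.13), and with the slide as a block (-0.10, adjusted p = 0.65), and it was kept without the compressed arrays (-0.26, adjusted p = 0.0036). Over the 8 groups the order ran from shNTC day 8 (mean -0.55) and shNTC day 13 (-0.68) at the top to shCdk8-1 day 8 (-1.16) and shCdk8-2 day 8 (-1.22) at the bottom, and no neighbours in that order differed at an adjusted p under 0.05.

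**Figure D2:**
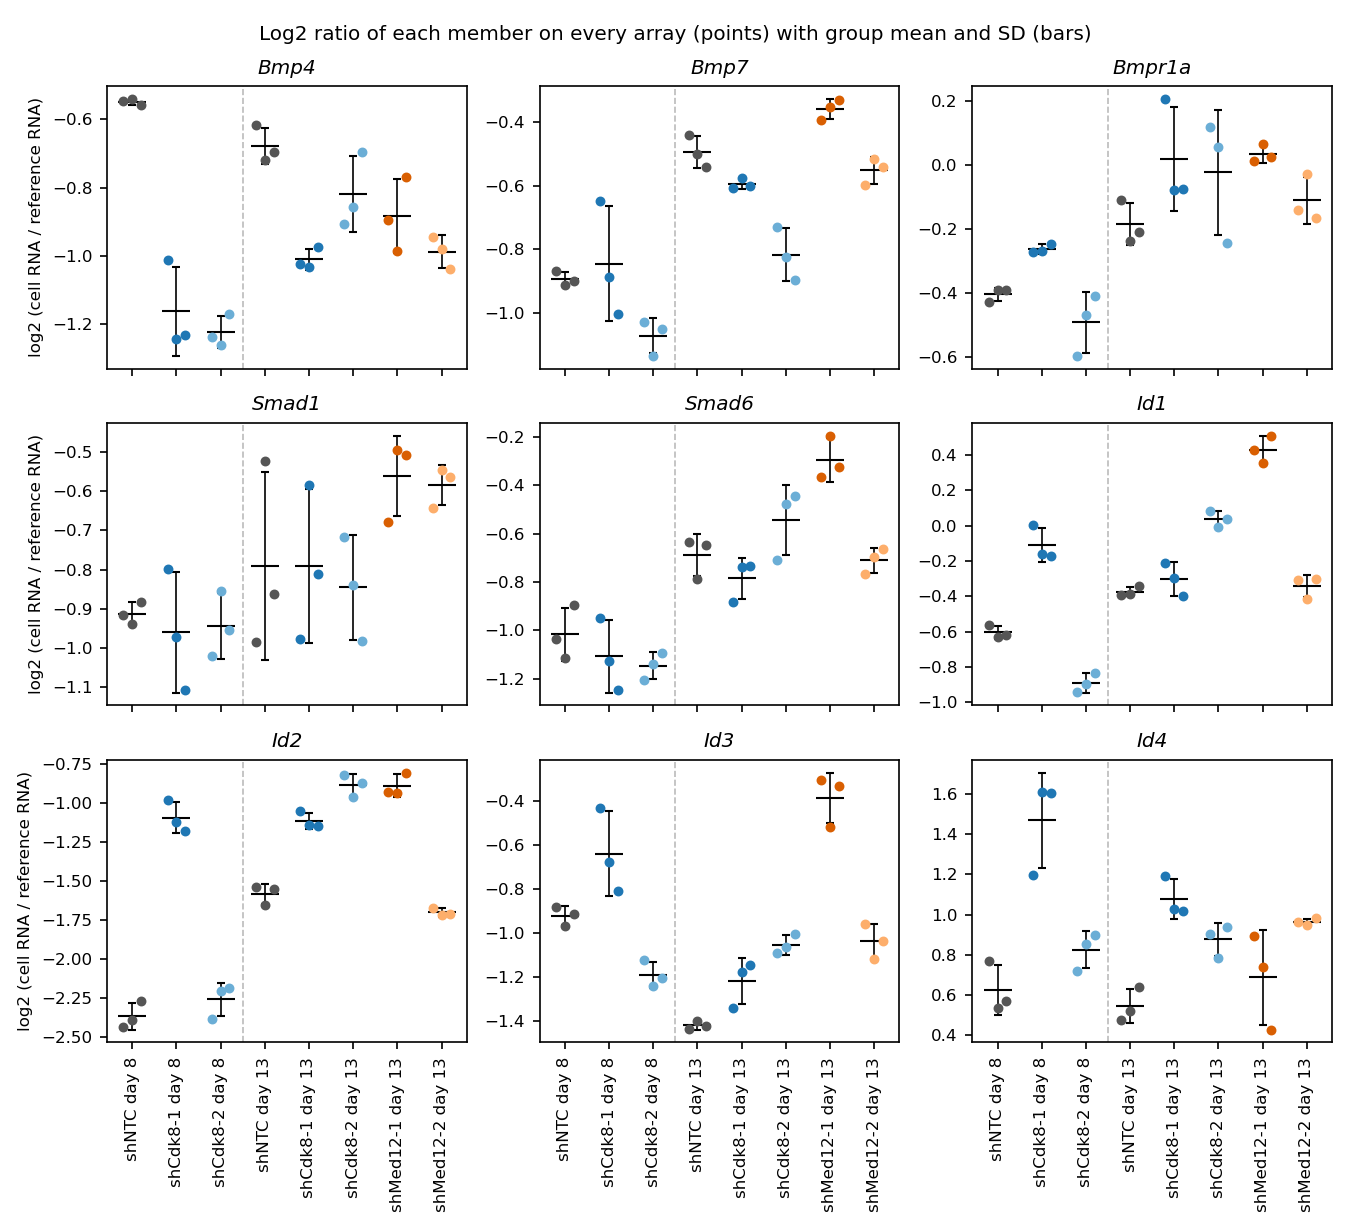
Log2 ratio of cell RNA over reference RNA for each of the 9 genes on every array (points, replicates 1 to 3 from left to right), by group, with the group mean and SD of 3 arrays (black bars); the dashed line separates day 8 from day 13, and each panel has its own scale. Bmp4 is highest in the shNTC groups of either day, while Id1, Id2 and Id3 are high with shMed12-1.

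Bmp7 encodes a second ligand of the family and lies at chr2:172868012-172940321. On day 8 its log2 ratio was -0.87, -0.91 and -0.90 with shNTC, -0.65, -0.89 and -1.0 with shCdk8-1 and -1.03, -1.14 and -1.05 with shCdk8-2. The shCdk8-2 arrays lay below the controls and the shCdk8-1 arrays lay on either side of them. Neither hairpin passed, with differences of 0.05 (adjusted p = 0.69) and -0.18 (adjusted p = 0.084). The second passed under 5 alternatives: without background subtraction, by the Feature Extraction ratios, by the deposited value table, without the compressed arrays and from the Cy5 channel alone (-0.20 to -0.17, adjusted p = 0.021 to 0.049). The first was -0.05 (adjusted p = 0.62) without the compressed arrays. On day 13 the ratio was -0.44, -0.50 and -0.54 with shNTC, -0.61, -0.58 and -0.60 with shCdk8-1 and -0.73, -0.82 and -0.90 with shCdk8-2. All 6 knockdown arrays lay below the controls, beside 8.04% of all genes. Bmp7 fell with shCdk8-2 by -0.32 ± 0.07 (adjusted p = 0.0028), while the shCdk8-1 difference of -0.10 missed the threshold (adjusted p = 0.40). A further Bmp7 probe, A_52_P278354, gave -0.43 with shCdk8-2 on day 13 and -0.05 with shCdk8-1. The mean of both hairpins, -0.21 (adjusted p = 0.018), lost its call without shNTC day 13 replicate 1 (-0.19, adjusted p = 0.12) or replicate 2 (-0.22, adjusted p = 0.061), and with the slide as a block (-0.28, adjusted p = 0.098).

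In the Med12 groups Bmp7 was -0.39, -0.35 and -0.33 with shMed12-1 and -0.60, -0.52 and -0.54 with shMed12-2. The former lay above the controls and the latter overlapped them, with differences of 0.14 (adjusted p = 0.15) and -0.06 (adjusted p = 0.64). The fall seen for Bmp4 after Med12 knockdown was not detected for Bmp7. The highest group mean was that of shMed12-1 (-0.36) and the lowest that of shCdk8-2 on day 8 (-1.07), and of the neighbours in this order, shCdk8-1 and shCdk8-2 on day 13 differed (adjusted p = 0.034).

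Bmpr1a, at chr14:34411061-34503336, encodes the type I receptor that binds BMP4. Its log2 ratio was -0.43, -0.39 and -0.39 with shNTC on day 8 and -0.11, -0.24 and -0.21 on day 13. It stayed within -0.60 to 0.21 over all 24 arrays, and the 6 hairpin differences ran from -0.09 (shCdk8-2, day 8) to 0.22 (shMed12-1, adjusted p = 0.059). With shMed12-1 all 3 arrays (0.01, 0.06 and 0.03) lay above the controls, yet the comparison missed the threshold. The shCdk8-2 difference on day 13, 0.16 (adjusted p = 0.25), rested on a wide spread (0.12, 0.06 and -0.24) and was 0.27 (adjusted p = 0.026) without its replicate 3. Other settings called Bmpr1a where the fit did not. With shMed12-1 it passed by the Feature Extraction ratios and the deposited value table (0.22, adjusted p = 0.029 in both), with probes well above background on all 24 arrays, with only the groups compared and from the Cy5 channel alone (0.32, adjusted p = 0.011). With shCdk8-1 on day 13 it passed by the Feature Extraction ratios and the deposited value table (0.27, adjusted p = 0.014 in both) and from the Cy5 channel alone (0.31, adjusted p = 0.021). The dimmer Bmpr1a probe, A_52_P624572, was well above background on 20 of 24 arrays and differed by at most 0.09 in these comparisons.

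Smad1, at chr8:79338395-79399428, encodes the SMAD that BMP receptors phosphorylate. It was -0.92, -0.94 and -0.88 with shNTC on day 8 and -0.99, -0.52 and -0.86 on day 13, with 1 control array, replicate 2 of day 13, well above the rest. Its differences with the Cdk8 hairpins lay between -0.06 and 0.00 with adjusted p-values of 0.83 or more, and their 95% intervals reached from -0.28 to 0.23. With the Med12 hairpins Smad1 was -0.68, -0.49 and -0.51 and -0.64, -0.55 and -0.56. Those differences of 0.23 (adjusted p = 0.13) and 0.21 (adjusted p = 0.23) passed without shNTC day 13 replicate 2, at 0.36 (adjusted p = 0.019) and 0.34 (adjusted p = 0.035). From the Cy5 channel alone they passed as well, at 0.35 (adjusted p = 0.0089) and 0.41 (adjusted p = 0.0028), and the first also as the mean of the Smad1 probes (0.26, adjusted p = 0.017). The further Smad1 probe, A_52_P65108, gave 0.28 (adjusted p = 0.026) and 0.17 (adjusted p = 0.22).

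Smad6, at chr9:63953076-64022085, encodes the inhibitory SMAD, itself a BMP target. It was -0.63, -0.79 and -0.65 with shNTC on day 13, against -0.37, -0.20 and -0.33 with shMed12-1 and -0.77, -0.70 and -0.67 with shMed12-2. Every shMed12-1 array lay above every control array, and the shMed12-2 arrays overlapped the controls. Smad6 rose with shMed12-1 by 0.39 ± 0.08 (adjusted p = 0.0015), 1.31-fold, while shMed12-2 gave -0.02 (adjusted p = 0.90). The shMed12-1 call was kept without the compressed arrays (0.41, adjusted p = 0.0014) and lost with the slide as a block (0.38, adjusted p = 0.11) and from the Cy5 channel alone (0.06, adjusted p = 0.74). With the Cdk8 hairpins Smad6 differed by -0.13 to 0.14, and none of those 4 comparisons passed. As the mean of both Med12 hairpins Smad6 was 0.19 (adjusted p = 0.074), or 0.19 (adjusted p = 0.047) without the compressed arrays.

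The ID genes lie apart in the genome: Id1 at chr2:152736251-152737410, Id2 at chr12:25093799-25096092, Id3 at chr4:136143822-136145392 and Id4 at chr13:48261116-48266028. So that the ID genes can be compared with Bmp4, the 250 bases before the RefSeq starts of Id2, Id3 and Id4 (GRCm38.p6; Id2 chr12:25096093-25096342, minus strand; Id3 chr4:136143572-136143821, plus strand; Id4 chr13:48260866-48261115, plus strand) are shown 5′ to 3′, with capitals marking GGCGCC and GGAGCC on either strand.
Id2: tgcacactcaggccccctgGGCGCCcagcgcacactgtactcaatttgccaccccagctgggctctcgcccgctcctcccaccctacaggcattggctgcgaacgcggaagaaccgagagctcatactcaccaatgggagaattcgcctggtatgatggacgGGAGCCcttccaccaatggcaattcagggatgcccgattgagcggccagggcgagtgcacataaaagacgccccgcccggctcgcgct
Id3: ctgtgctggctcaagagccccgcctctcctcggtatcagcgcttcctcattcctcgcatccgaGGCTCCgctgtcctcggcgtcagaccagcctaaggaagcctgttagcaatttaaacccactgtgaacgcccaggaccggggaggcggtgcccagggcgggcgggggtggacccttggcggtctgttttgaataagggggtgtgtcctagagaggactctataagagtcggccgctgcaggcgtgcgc
Id4: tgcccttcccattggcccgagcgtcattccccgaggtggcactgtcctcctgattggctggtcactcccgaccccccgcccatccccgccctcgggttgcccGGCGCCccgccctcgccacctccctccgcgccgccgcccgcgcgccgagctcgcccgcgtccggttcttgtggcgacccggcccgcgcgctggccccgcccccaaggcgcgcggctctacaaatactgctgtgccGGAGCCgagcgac
The palindrome GGCGCC, another GC-rich sequence bound by SMAD1, stood in 9.59% of the 32851 windows. It was present once before Id2 and once before Id4, each beside 1 GGAGCC, while Id3 held 1 GGAGCC alone, as GGCTCC. None of these windows held CAGACA, the only form of the SMAD box searched, present in 17.1% of all windows, or the TATA sequence TATAAA, present in 12.4%. Promoter entries were matched for 7 of the 9 genes, whose GC content was 62.8% to 78.8% against a median of 52.4%, and Bmp7 and Id1 were not among them. Of the other matched windows, Bmpr1a held 1 GGCGCC, Smad6 held 2 GGAGCC and Smad1 held neither.

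Id2 showed the largest change of the 9 genes. On day 8 its log2 ratio was -2.44, -2.39 and -2.27 with shNTC, -0.98, -1.12 and -1.18 with shCdk8-1 and -2.38, -2.21 and -2.19 with shCdk8-2. The shCdk8-1 arrays stood more than 1 log2 unit above every other day 8 array, while shCdk8-2 overlapped the controls. The shCdk8-1 difference was 1.27 ± 0.07 (adjusted p = 1.5e-10), 2.42-fold, and 1.22 (adjusted p = 3.1e-10) without the compressed arrays, whereas shCdk8-2 gave 0.11 (95% interval -0.03 to 0.25, adjusted p = 0.33). A further Id2 probe, A_51_P219074, gave 1.11 and 0.15.

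On day 13 Id2 was -1.54, -1.66 and -1.55 with shNTC, -1.05, -1.14 and -1.15 with shCdk8-1 and -0.82, -0.96 and -0.87 with shCdk8-2. All 6 knockdown arrays lay above the controls, beside 7.85% of all genes. Id2 rose by 0.47 ± 0.07 (adjusted p = 6e-05) with shCdk8-1 and by 0.70 ± 0.07 (adjusted p = 1e-06) with shCdk8-2, and was the 1 member of the 9 to pass with both hairpins at this time. On slide H, shCdk8-2 exceeded shNTC by 0.67, and the further probe gave 0.43 and 0.63.

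After Med12 knockdown Id2 was -0.93, -0.94 and -0.80 with shMed12-1 and -1.67, -1.72 and -1.71 with shMed12-2. The former lay above all 3 controls and the latter below all 3. Only the shMed12-1 difference passed, at 0.69 ± 0.07 (adjusted p = 1.8e-07), or 0.65 (adjusted p = 5.7e-07) without the compressed arrays, against -0.12 (adjusted p = 0.25) with shMed12-2. In the order of group means, shCdk8-2 day 13 (-0.88) and shMed12-1 (-0.89) shared the top without a difference (adjusted p = 0.96), and shCdk8-2 day 8 (-2.26) and shNTC day 8 (-2.37) shared the bottom (adjusted p = 0.33).

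Id1, a well known BMP target, moved in opposite directions with the Cdk8 hairpins on day 8. Its log2 ratio was -0.56, -0.63 and -0.62 with shNTC, 0.00, -0.16 and -0.17 with shCdk8-1 and -0.94, -0.90 and -0.83 with shCdk8-2. The 3 groups did not overlap. Id1 rose by 0.49 ± 0.06 (adjusted p = 7.9e-06) with shCdk8-1, or 0.44 (adjusted p = 3.4e-05) without the compressed arrays, and fell by 0.29 ± 0.06 on the log2 scale (adjusted p = 0.0025) with shCdk8-2, and the further probe, A_51_P385786, gave 0.41 and -0.38. The shCdk8-2 call was lost with the slide as a block (-0.23, adjusted p = 0.074) and from the Cy5 channel alone (-0.03, adjusted p = 0.91).

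On day 13 Id1 was -0.39, -0.38 and -0.34 with shNTC, -0.21, -0.30 and -0.40 with shCdk8-1 and 0.08, -0.01 and 0.04 with shCdk8-2. Here the second hairpin stood above the controls and the first overlapped them, so the order of the Cdk8 hairpins was the opposite of day 8. Id1 rose with shCdk8-2 by 0.41 ± 0.06 (adjusted p = 0.00011), and shCdk8-1 gave 0.07 (adjusted p = 0.54). With the Med12 hairpins it was 0.43, 0.35 and 0.51 on the shMed12-1 arrays and -0.31, -0.41 and -0.30 on the shMed12-2 arrays, which overlapped the controls. Id1 rose with shMed12-1 by 0.80 ± 0.06 (adjusted p = 5.2e-09), 1.74-fold, or 0.76 (adjusted p = 1.2e-08) without the compressed arrays, against 0.03 (95% interval -0.09 to 0.16, adjusted p = 0.79) with shMed12-2. The shMed12-1 group mean of 0.43 was the highest of the 8 and exceeded the next, shCdk8-2 day 13 at 0.04 (adjusted p = 7.9e-05).

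Id3, like Id1, split between the Cdk8 hairpins on day 8. It was -0.88, -0.97 and -0.91 with shNTC, -0.43, -0.68 and -0.81 with shCdk8-1 and -1.13, -1.24 and -1.21 with shCdk8-2. The shCdk8-1 arrays lay above the controls with a wide spread, and the shCdk8-2 arrays lay below them. The differences of 0.28 ± 0.08 (adjusted p = 0.017) and -0.27 ± 0.08 (adjusted p = 0.026) were both near the threshold. Both lost their calls with only the groups compared in the fit. The first lost its call without shCdk8-1 day 8 replicate 1, a compressed array (0.18, adjusted p = 0.11), without shNTC day 8 replicate 2 (0.26, adjusted p = 0.071), with the slide as a block (0.18, adjusted p = 0.48) and from the Cy5 channel alone (0.12, adjusted p = 0.36). The second lost its call without shNTC day 8 replicate 1 (-0.25, adjusted p = 0.093) or replicate 3 (-0.27, adjusted p = 0.074), and without shCdk8-2 day 8 replicate 2 (-0.24, adjusted p = 0.090) or replicate 3 (-0.26, adjusted p = 0.075), and with the slide as a block (-0.32, adjusted p = 0.071).

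On day 13 Id3 was -1.44, -1.40 and -1.43 with shNTC, the lowest group mean of the 8 (-1.42). It was -1.34, -1.18 and -1.15 with shCdk8-1 and -1.09, -1.07 and -1.01 with shCdk8-2. All 6 lay above the controls, beside 7.85% of all genes. Id3 rose with shCdk8-2 by 0.37 ± 0.08 (adjusted p = 0.0041), and the shCdk8-1 difference of 0.20 ± 0.08 missed the threshold (adjusted p = 0.11). With the spread estimated without the compressed arrays, which are in neither group, the same 0.20 passed (adjusted p = 0.037), as it did without background subtraction and by the Feature Extraction ratios or the value table (adjusted p = 0.025 to 0.049). With the slide as a block the shCdk8-2 difference was 0.33 (adjusted p = 0.065).

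The Med12 hairpins gave the largest Id3 change. Id3 was -0.30, -0.52 and -0.33 with shMed12-1 and -0.96, -1.12 and -1.04 with shMed12-2. All 6 arrays lay above the controls, beside 10.6% of all genes. The differences were 1.04 ± 0.08 (adjusted p = 7.9e-09), 2.05-fold, and 0.38 ± 0.08 (adjusted p = 0.0016), 1.30-fold. Without the compressed arrays they were 1.01 and 0.38, and within slides A and B shMed12-2 exceeded shNTC by 0.44 and 0.31.

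Id4, which is better known from neural precursors and germline stem cells, was above the reference RNA on all 24 arrays by its brighter probe. On day 8 it was 0.77, 0.54 and 0.57 with shNTC, 1.20, 1.61 and 1.61 with shCdk8-1 and 0.72, 0.85 and 0.90 with shCdk8-2. It rose with shCdk8-1 by 0.85 ± 0.11 (adjusted p = 1.8e-05), 1.80-fold, and shCdk8-2 gave 0.20 (adjusted p = 0.26), with arrays that overlapped the controls. Without the compressed arrays, one of them the lowest of the shCdk8-1 values, the first difference was 0.98 (adjusted p = 4.6e-08).

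On day 13 Id4 was 0.47, 0.52 and 0.64 with shNTC, 1.19, 1.03 and 1.02 with shCdk8-1 and 0.90, 0.79 and 0.94 with shCdk8-2. Both Cdk8 hairpin groups lay above the controls, beside 7.85% of all genes, with differences of 0.54 ± 0.11 (adjusted p = 0.0022) and 0.33 ± 0.11 (adjusted p = 0.055). The second passed with the spread estimated without the compressed arrays (0.33, adjusted p = 0.0027) and by the Feature Extraction ratios (0.51, adjusted p = 0.00018), and the first lost its call with the slide as a block (0.58, adjusted p = 0.10). With the Med12 hairpins Id4 was 0.89, 0.74 and 0.43 and 0.96, 0.95 and 0.98. It rose with shMed12-2 by 0.42 ± 0.11 (adjusted p = 0.0098), or 0.39 (adjusted p = 0.082) with the slide as a block, while shMed12-1, whose replicate 3 is the other compressed array, gave 0.14 (adjusted p = 0.37), or 0.27 (adjusted p = 0.017) without the compressed arrays and 0.53 (adjusted p = 5.7e-05) by the Feature Extraction ratios. The mean of both Med12 hairpins, 0.28 (adjusted p = 0.040), lost its call without any 1 of 8 of the 9 arrays compared, at 0.23 to 0.33 with adjusted p-values of 0.052 to 0.16, the exception being shMed12-1 replicate 3, and also with the slide as a block (0.32, adjusted p = 0.18) and from the Cy5 channel alone (0.20, adjusted p = 0.11). The dimmer Id4 probe, A_51_P494430, was well above background on 17 of 24 arrays and gave 0.19 with shCdk8-1 on day 8, less than the brighter probe, and from -0.19 to 0.31 over the 6 comparisons. Its group mean was 0.07 with shMed12-2 against -0.01 with shNTC on day 13, where 1 of 3 arrays in each group was well above background. The shMed12-2 call of Id4 was lost with the mean of its probes in place of the brighter one.

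Hairpins against 1 target were also tested against each other, which leaves out the shNTC arrays. On day 8, 5 of 9 genes differed between the Cdk8 hairpins, beside 17.7% of all genes: none was higher with shCdk8-2, beside 9.17%, and 5 were lower, beside 8.57%. They were Id2 by -1.17 ± 0.07 (adjusted p = 3.2e-10), Id1 by -0.78 ± 0.06 (adjusted p = 2.3e-08), Id4 by -0.65 ± 0.11 (adjusted p = 0.00036), Id3 by -0.55 ± 0.08 (adjusted p = 6.2e-05) and Bmp7 by -0.23 (adjusted p = 0.023). The Bmp7 call was lost without shCdk8-1 day 8 replicate 1 (-0.13, adjusted p = 0.15) or shCdk8-2 day 8 replicate 2 (-0.19, adjusted p = 0.10). Bmp7 (-0.12, adjusted p = 0.65) and Id4 (-0.68, adjusted p = 0.090) lost their calls with the slide as a block. With the compressed arrays left out the differences were -1.11 for Id2, -0.72 for Id1, -0.78 for Id4 and -0.45 for Id3, each still called. Bmp4 differed by -0.06, with a 95% interval of -0.20 to 0.08.

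**Figure D3:**
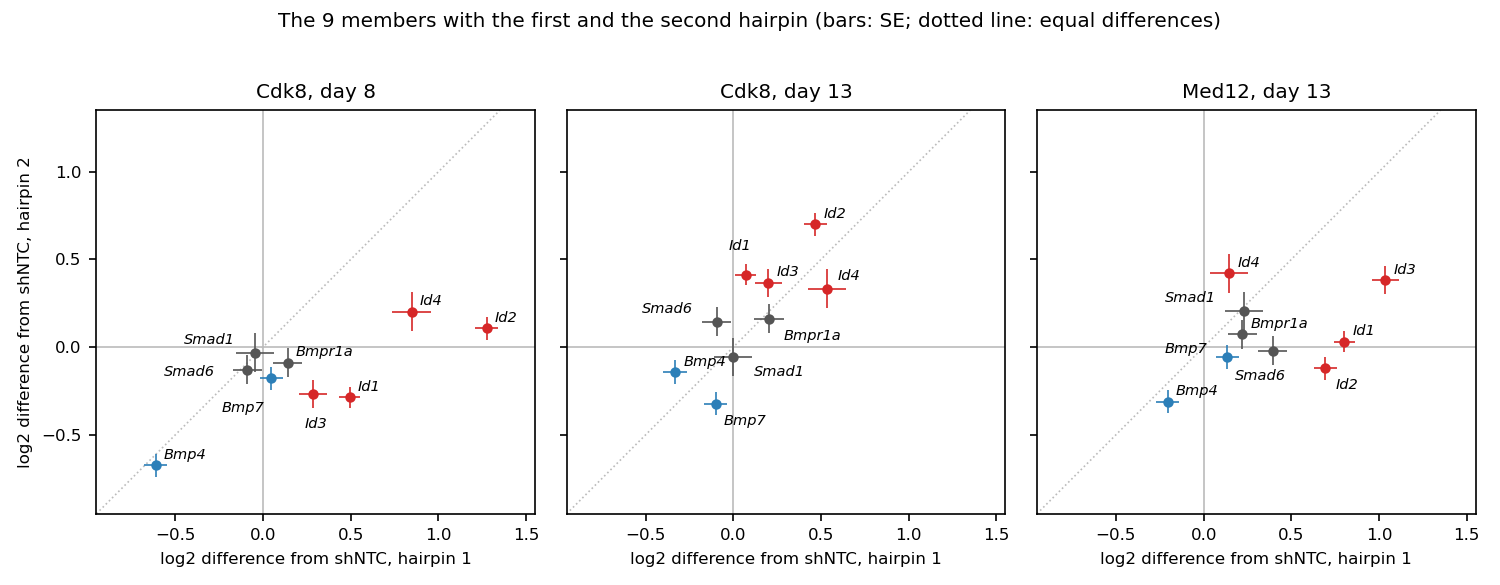
Log2 difference from shNTC with the first hairpin (horizontal) and with the second (vertical) for the 9 genes, after Cdk8 knockdown on day 8 and day 13 and Med12 knockdown on day 13; red, ID genes, blue, ligands, grey, receptor and SMADs; bars are SE and the dotted line marks equal differences. Both axes share the same 3 shNTC arrays, so they are not independent; on day 8 Bmp4 lies near the dotted line (-0.61, -0.67) while Id2 lies far from it (1.27, 0.11).

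On day 13, 3 of 9 genes differed between the Cdk8 hairpins, beside 11.7% of all genes. With shCdk8-2, Id1 was higher by 0.34 (adjusted p = 0.00056) and Id2 by 0.23 (adjusted p = 0.025), beside 5.55% of all genes, and Bmp7 was lower by -0.22 (adjusted p = 0.034), beside 6.13%. The order of the Cdk8 hairpins for Id1 and Id2 was thus the opposite of day 8. The Id2 call was lost without shCdk8-1 day 13 replicate 2 (0.22, adjusted p = 0.087) or 3 (0.22, adjusted p = 0.089) or shCdk8-2 day 13 replicate 1 (0.20, adjusted p = 0.11) or 3 (0.22, adjusted p = 0.069). The Bmp7 call was lost without any of 5 of the 6 arrays, at -0.18 to -0.23, the exception being shCdk8-2 replicate 1. With the slide as a block Id2 (0.30, adjusted p = 0.083) and Bmp7 (-0.15, adjusted p = 0.50) missed the threshold, and from the Cy5 channel alone Id1 did (0.26, adjusted p = 0.19). Bmp4 (0.19, adjusted p = 0.020) and Smad6 (0.24, adjusted p = 0.035) passed without the compressed arrays, and Id4 passed by the Feature Extraction ratios (-0.30, adjusted p = 0.010).

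Between shMed12-2 and shMed12-1, 5 of 9 genes differed, beside 21.5% of all genes: none was higher with shMed12-2, beside 10.3%, and 5 were lower, beside 11.2%. They were Id2 by -0.81 ± 0.07 (adjusted p = 2.4e-08), Id1 by -0.77 ± 0.06 (adjusted p = 1.1e-08), Id3 by -0.65 ± 0.08 (adjusted p = 4.3e-06), Smad6 by -0.41 ± 0.08 (adjusted p = 0.0011) and Bmp7 by -0.19 (adjusted p = 0.044), whose call was lost without any 1 of the 6 arrays (-0.17 to -0.21), with the slide as a block (-0.10, adjusted p = 0.69) and from the Cy5 channel alone (-0.10, adjusted p = 0.26). Id4 differed the other way, by 0.28 (adjusted p = 0.081), and by 0.38 (adjusted p = 0.026) without shMed12-1 replicate 1. Smad6 lost its call with the slide as a block (-0.40, adjusted p = 0.090) and from the Cy5 channel alone (-0.19, adjusted p = 0.22). These differences, with shMed12-2 the lower, were without the compressed arrays -0.77 for Id2, -0.73 for Id1, -0.63 for Id3, -0.43 for Smad6 and -0.18 for Bmp7, each still called. Med12 itself differed from shNTC by -1.0 and -0.88.

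Setting the Cdk8 hairpins directly against the Med12 hairpins on day 13 removes the shared controls. As means over both hairpins, 5 of 9 genes differed, beside 18.2% of all genes: 1 was higher after Cdk8 knockdown, beside 8.5%, and 4 were lower, beside 9.69%. Id2 was higher after Cdk8 knockdown by 0.30 ± 0.05 (adjusted p = 1e-04), whereas Id3 was lower by -0.43 ± 0.06 (adjusted p = 1.4e-05), Bmp7 by -0.25 ± 0.05 (adjusted p = 0.00065), Smad1 by -0.25 ± 0.08 (adjusted p = 0.030) and Id1 by -0.18 ± 0.04 (adjusted p = 0.0052). Bmp4 differed by 0.02, with a 95% interval of -0.08 to 0.12. In each of these genes the arrays of the Cdk8 and Med12 groups overlapped, and for Id1, Id2 and Id3 the Med12 hairpins lay further apart (-0.77, -0.81 and -0.65) than these means. The Smad1 call was lost without any 1 of 8 of the 12 arrays, the exceptions being shCdk8-1 replicate 2 and replicate 1 of the other 3 hairpins (-0.20 to -0.25, adjusted p = 0.053 to 0.092) and with the slide as a block (-0.22, adjusted p = 0.13). Smad6 passed without shCdk8-2 day 13 replicate 3 (-0.19, adjusted p = 0.042). Without the compressed arrays the differences were 0.32 for Id2, -0.41 for Id3, -0.24 for Bmp7, -0.23 for Smad1 and -0.16 for Id1, each still called, and Smad6 passed (-0.17, adjusted p = 0.042).

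Members also differed between the shNTC cells of either day. Of the 9, 5 passed, beside 17.6% of all genes: 4 were higher on day 13, beside 8.56%, and 1 was lower, beside 9.01%. Id2 was higher on day 13 by 0.79 ± 0.07 (adjusted p = 5.8e-08), Bmp7 by 0.40 ± 0.07 (adjusted p = 0.00023), Smad6 by 0.33 ± 0.08 (adjusted p = 0.0085) and Id1 by 0.23 ± 0.06 (adjusted p = 0.0094), while Id3 was lower by -0.50 ± 0.08 (adjusted p = 0.00014). Smad6 missed the threshold without shNTC day 8 replicate 2 (0.28, adjusted p = 0.054). Within slides A and B the Id2 difference was 0.78 and 0.84 and the Id3 difference -0.52 and -0.46. From the Cy5 channel alone Id1 missed the threshold (0.24, adjusted p = 0.20), and with median centring only Id2 passed. By the Feature Extraction ratios Bmpr1a (0.27, adjusted p = 0.011) and Id4 (-0.33, adjusted p = 0.0044) passed as well. The Id2 difference in the control cells was larger than its hairpin differences except that of shCdk8-1 on day 8. The arrays of either day sat mostly at different positions on the slides, so day and position can be told apart only in part.

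Whether a hairpin's difference changed between the days was also tested for each Cdk8 hairpin alone, contrasts added after the values were seen. With shCdk8-1, 2 of 9 genes passed, both lower, beside 0.549% of all genes (0.397% higher, 0.152% lower): the rise of Id2 was smaller on day 13 by -0.81 ± 0.09 (adjusted p = 5.6e-05) and that of Id1 by -0.42 ± 0.08 (adjusted p = 0.020). The Id1 call was lost without replicate 2 or 3 of shNTC on day 8, any replicate of shNTC on day 13 or replicate 3 of shCdk8-1 on day 13 (-0.43 to -0.38, adjusted p = 0.050 to 0.070), and with the slide as a block (-0.48, adjusted p = 0.088). By the Feature Extraction ratios it was -0.30 (adjusted p = 0.086). With shCdk8-2, 4 of 9 passed, all higher, beside 5.86% (2.93% in either direction): the differences of Id1, Id3 and Id2 were higher on day 13 by 0.70 ± 0.08 (adjusted p = 3.6e-05), 0.64 ± 0.11 (adjusted p = 0.0015) and 0.59 ± 0.09 (adjusted p = 0.00055), and that of Bmp4 by 0.53 ± 0.09 (adjusted p = 0.0016). Averaged over both hairpins the Id1 and Id2 terms, which had opposite signs, came to 0.14 (adjusted p = 0.45) and -0.11 (adjusted p = 0.65). For Bmp4 the sign was the same, with 0.28 (adjusted p = 0.37) for shCdk8-1, or 0.36 (adjusted p = 0.027) without the compressed arrays. Those arrays left out, the shCdk8-1 terms of Id2 and Id1 were -0.75 and -0.37, both still called, and that of Id4 passed (-0.45, adjusted p = 0.033). By the Feature Extraction ratios the shCdk8-2 term of Id4 passed (0.40, adjusted p = 0.028). From the Cy5 channel alone the Id1 terms missed the threshold, at -0.58 (adjusted p = 0.14) and 0.55 (adjusted p = 0.067).

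Other genes of the pathway were taken from 6 lists of ligands, receptors, SMADs and their regulators, extracellular modulators, targets and ID partners, of which 62 of 81 genes beside the members were measured. On day 8 after Cdk8 knockdown, 3 rose and 2 fell with both hairpins (8.06% of 62, against 5.1% of all genes), on day 13, 3 rose and none fell (4.84% against 4.22%), and after Med12 knockdown 11 rose and 2 fell (21% against 8.6%). Their median differences, as means of both hairpins, were -0.05, 0.06 and 0.05. On day 8 the oocyte ligand Gdf9 fell (-0.52 and -0.94 with the hairpins in order), as did Dusp9, a phosphatase of ERK kinases (-0.47 and -0.23), and the E protein gene Tcf3 (0.25 and 0.38), the SMAD corepressor gene Skil (0.28 and 0.26) and the SMAD phosphatase gene Ctdsp1 (0.26 and 0.28) rose.

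On day 13 the type I receptor gene Acvr1 rose with both Cdk8 hairpins (0.26 and 0.40), as did the BMP co-receptor gene Rgma (0.40 and 0.35) and the target Gata3 (0.41 and 0.79). The same 3 genes rose with both Med12 hairpins, Acvr1 by 0.38 and 0.32, Rgma by 0.57 and 0.46 and Gata3 by 1.80 and 0.69, and both sets of comparisons share the shNTC arrays. After Med12 knockdown the SMAD-binding repressor Zeb2 (0.85 and 0.96), the BMP antagonist Nbl1 (1.01 and 0.37), the procollagen and chordin protease Bmp1 (1.44 and 0.34), the proprotein convertase Furin (0.66 and 0.53), Ctdsp1 (0.46 and 0.44), the ID partner Tcf12 (0.43 and 0.22), Smad4 (0.31 and 0.18) and Junb (0.30 and 0.33) also rose. The ligand Bmp6 (-0.26 and -0.37) and the co-receptor endoglin, Eng (-0.26 and -0.55), fell. By list, 2 of 10 ligands (Bmp4 and Bmp6), 3 of 10 receptors, 3 of 16 SMADs and regulators, 3 of 16 modulators, 3 of 20 targets and 1 of 3 ID partners passed with both Med12 hairpins, members included. Bmp1, despite its name, is a protease and no ligand, and Gata3 is also a trophectoderm marker.

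**Figure D4:**
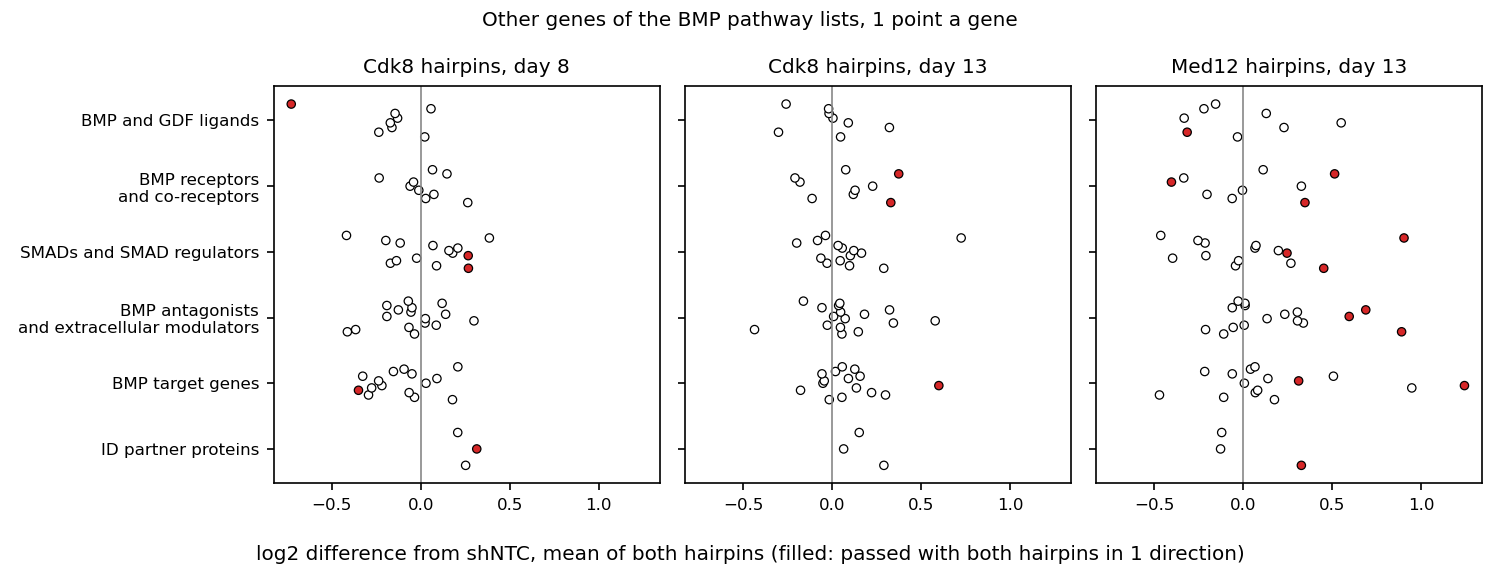
Log2 difference from shNTC as the mean of both hairpins for the measured pathway genes beside the 9 members, 1 point a gene (a gene in 2 lists is drawn in both), by list and comparison; filled points passed with both hairpins in the same direction. Most filled points (13 genes) are in the Med12 panel, with Gata3 furthest to the right at 1.24.

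Markers of other cell types moved with some of the same groups. Their counts here and in the next paragraph use all 24 arrays and stand beside these shares of all genes. On day 8, 8.64% were higher and 8.22% lower with shCdk8-1, and 7.39% and 6.62% with shCdk8-2. On day 13 the shares were 6.5% and 6.1% with shCdk8-1 and 5.86% and 5.69% with shCdk8-2. With shMed12-1 they were 12.9% and 12%, and with shMed12-2 9.04% and 8.77%. The trophectoderm list (11 of 12 measured) had a mean log2 ratio of 0.64 to 0.69 on the shNTC arrays of day 13. It was 1.34 to 1.86 with shMed12-1 and 0.89 to 0.99 with shMed12-2, with 7 and 4 of 11 genes higher and none lower. The 1.34 is that of replicate 3, a compressed array, and the other shMed12-1 arrays were at 1.81 and 1.86. The rise of Id1, Id2, Id3 and Smad6 with shMed12-1 thus stood beside the highest level of this list, and its part in those results was not tested, while Elf5 of this list was not well above background on any shNTC array. The ES cell list was lower on the same arrays, at 3.97 to 4.67 with shMed12-1 against 5.02 to 5.14 with shNTC (7 of 11 genes lower, none higher). The 3.97 is again that of the compressed replicate 3, and the other shMed12-1 arrays were at 4.57 and 4.67. The ES cell list was also below these controls with shMed12-2 (4.60 to 4.74), shCdk8-1 (4.78 to 4.89) and shCdk8-2 (4.86 to 4.94). Of its genes 1, 2 and 1 were lower there, and none was higher. On day 8 it was 4.09 (the compressed array) to 4.99 with shCdk8-1 and 5.01 to 5.05 with shCdk8-2, against 5.12 to 5.18. On day 8 the trophectoderm list was lower with both Cdk8 hairpins (3 of 11 genes lower and none higher with each), beside the fall of Bmp4. It was at -0.33 to -0.06 with shCdk8-1 and -0.24 to -0.21 with shCdk8-2 against 0.14 to 0.17. The -0.33 is that of replicate 1 of shCdk8-1, a compressed array, and the other shCdk8-1 arrays were at -0.11 and -0.06. On day 13 the trophectoderm list had 3 genes higher and none lower with each Cdk8 hairpin. The primitive endoderm list (14 genes) was -0.49 to -0.44 with shNTC on day 8, -0.75 to -0.74 with shCdk8-1 (7 lower, 1 higher) and -1.31 to -1.29 with shCdk8-2 (10 lower, none higher). It was thus lower with both hairpins on day 8, as Bmp4 was, while Id1 and Id3 rose with the first and fell with the second. On day 13 the list was -1.24 to -1.15 with shNTC and -1.48 to -1.47 with shCdk8-1 (4 lower, 1 higher). It was -1.48 to -1.46 with shCdk8-2 (5 lower, none higher) and -1.49 to -1.43 with shMed12-2 (5 lower, 2 higher). With shMed12-1, where Bmp4 was also lower, the list overlapped the controls at -1.29 to -1.09 (4 lower, 3 higher). The -1.09 is that of the compressed replicate 3, and the other shMed12-1 arrays were at -1.25 and -1.29. The parts of both lists were not tested. In bulk RNA, fewer cells of a type and less RNA per cell cannot be told apart.

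The neural list (10 of 12 measured) had 5 genes higher with shCdk8-1 on day 8, at a mean of 0.40 to 0.72 against 0.17 to 0.29 with shNTC. It had 3 higher with shCdk8-2, at 0.41 to 0.46, where Id4 did not pass. The 0.40 is that of the compressed replicate 1, and the other shCdk8-1 arrays were at 0.68 and 0.72. On day 13 the neural list had 4 genes higher with shCdk8-1, 1 with shCdk8-2 and 3 (with 1 lower) with shMed12-2. With shMed12-1, 2 were lower and none higher. Pax3, which was not kept, and Fabp7, which is among the 10, were not well above background on any shNTC array. Fabp7 was thus kept only through a hairpin group. The same holds for Foxf1 of the mesoderm list (1 of 6 shNTC arrays) and Afp of the primitive endoderm list (2 of 6). The means and counts of their lists include these genes. The mesoderm list (9 of 12) had 4 genes that passed with shMed12-1, 2 higher and 2 lower, beside 12.9% and 12% of all genes. Its mean was 0.18 to 0.47 there against 0.21 to 0.24 with shNTC. The 0.18 is that of replicate 3, a compressed array, and the other shMed12-1 arrays were at 0.43 and 0.47. With the other hairpins between 0 and 3 genes of the mesoderm list passed. Gata2 of this list, named below for its likeness to Id1, had a group mean of 0.27 with shMed12-1 against -1.45 with shNTC on day 13. Gata2 does not stand for its list, whose median difference from shNTC with shMed12-1 was -0.11. The fibroblast and feeder list (16 genes) was at -4.13 to -3.82 with shNTC on day 13 and higher with each hairpin of that day: -3.77 to -3.47 with shCdk8-1 (5 higher, none lower), -3.76 to -3.34 with shCdk8-2 (4 higher, none lower), -3.40 to -3.33 with shMed12-1 (7 higher, none lower) and -3.65 to -3.24 with shMed12-2 (6 higher, 1 lower). These rises stand beside that of Id2 with both Cdk8 hairpins and of Id3 with both Med12 hairpins on day 13, and the list's mean was below the reference RNA in all groups. On day 8, where Id2 rose with shCdk8-1, the list overlapped the controls with that hairpin. It was -4.23 to -3.56 (the compressed array) against -4.15 to -3.70, with 2 genes higher and 3 lower. With shCdk8-2 on day 8 it was -4.32 to -4.24, with 1 higher and 3 lower. In shNTC cells the list means on day 8 and day 13 were 0.15 and 0.67 for trophectoderm, -0.47 and -1.20 for primitive endoderm and 0.22 and 0.54 for neural. They were 5.15 and 5.07 for ES cell, 0.15 and 0.23 for mesoderm and -3.97 and -4.02 for fibroblast and feeder markers. The parts of these lists in the results above, the differences between the days in shNTC cells included, were not tested.

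Across the 24 arrays the members did not rise and fall as 1 group. Id1 and Id2 had a Pearson correlation of 0.87, Id1 and Id3 of 0.65, and Id2 and Id3 of 0.37, while Id4 correlated at 0.10 with Id1, 0.34 with Id2 and 0.19 with Id3. Bmp4 correlated at 0.11 with Id1 and -0.68 with Id4, and Bmp7 at 0.64 with Id1 and 0.77 with Smad6. The arrays share groups, controls and the reference RNA, so these are descriptions over 24 points. Among 13730 other genes with a symbol, the patterns most like Bmp4 were those of Ric8b (0.92), Kifc3 (0.90) and Rad23b (0.85). Those most like Id1 were Il10rb, Pmaip1 and Gata2 (0.90 each), those most like Id2 were Glis2 (0.92), Msl3 (0.90) and Gbe1 (0.89), and those most like Id3 were Vnn1 (0.91), Eif2ak2 (0.90) and Ecm1 (0.90). The correlations of these genes with Bmp4, Id1, Id2 and Id3 stood against medians over all 13730 of 0.03, 0.02, 0.02 and -0.01.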

How the data were processed

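Total RNA of R1 cells was hybridised to 24 Agilent 2-colour arrays against a common reference, per the labels' protocols, always with the cells in Cy5 and with no dye swap. The authors deposited scanner output with median spot intensity and background intensity per channel and a log10 ratio per spot, written by Agilent Feature Extraction 10.7 per the submitters' processing notes. They also deposited a value table of log2 ratios, which matched the scanner ratios over 41174 probes with a slope of 1.00. Column medians of that table were -0.0049 to 0.12.

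Here intensities were background-corrected (normexp, offset 50) and loess-normalized within arrays in limma 3.58.1 under R 4.3.3 and with the data.table package, version 1.17.8. The 1639 control spots and outlier spots (median 210 per array) had weight 0. Spots were averaged per probe, and a probe was kept where at least 1 group had all 3 of its arrays well above background for the cells' dye, which left 28304 probes. The 63 probes with missing values were dropped. Accessions named 22951 probes, and each of the 22394 genes was represented by its brightest probe. The fit had 8 group means and 16 residual degrees of freedom, moderated two-sided tests and Benjamini-Hochberg adjustment. The number of arrays limits the precision, and the arrays carry no read depth. Checked on simulated data for the day 8 Cdk8 comparison with 22394 genes, the fit recovered with both hairpins 78% of genes changed by 0.5 log2 and 96% of those changed by 1 log2. The simulation gave both hairpins the same change and each array independent noise, with no slide effect and no compressed array. Its shares therefore do not cover genes on which the hairpins differ.

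Members, gene lists and tests were chosen with earlier results of these data known. Named genes were the 9 members, up to 4 genes per pathway list that changed with both hairpins, the 3 genes most like each of Bmp4, Id1, Id2 and Id3, the targeted genes, and markers. Same-numbered arrays of different groups did not deviate together (median correlation -0.02 over 84 pairs, against 0.01 over 168 others), so numbers were not taken as pairs. Alternatives were other background corrections, normalizations, filters, probe rules and ratio sources, the slide or replicate number as a block, fewer groups and each array left out. Leaving out both compressed arrays, the Cy5 channel alone, the interaction per hairpin and the further alternatives for hairpin differences were added after the data were seen. Promoters came from RefSeq (GRCm38.p6).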

Additional observations from a re-analysis of the deposited data

Results flagged for a closer look

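The difference of the Cdk8 hairpins from shNTC changed between day 8 and day 13 for some members, by an interaction test in limma over all genes. For Bmp4 the change, day 13 minus day 8, was 0.41 as the mean of both hairpins (adjusted p = 0.0087) and 0.53 with shCdk8-2 (adjusted p = 0.0016), as its fall was smaller on day 13. With shCdk8-1 it was -0.42 for Id1 (adjusted p = 0.020) and -0.81 for Id2 (adjusted p = 5.6e-05). With shCdk8-2 it was 0.70 for Id1 (adjusted p = 3.6e-05), 0.59 for Id2 (adjusted p = 0.00055) and 0.64 for Id3 (adjusted p = 0.0015). The tests per hairpin were added after the values were seen. Days and array positions can be told apart only in part, and the part of position in these changes was not tested.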

How the results depend on the processing

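Of 67 calls on members over all comparisons, 19 were kept under every alternative, single arrays left out included, and no called difference changed sign. Median centring in place of loess, under which the median of all genes was -0.12 log2 between the Cdk8 hairpins on day 8 (-0.0075 with loess) and -0.14 in the shCdk8-1 interaction with day (-0.0032 with loess), ended 45 of the 67, and the slide as a fixed block, which left 9 residual degrees of freedom, ended 24. The cause was not tested. With median centring the members changed with both hairpins were 0 for Cdk8 on day 8 (against 1), 0 for Cdk8 on day 13 (against 1) and 0 for Med12 (against 2). It left 1 member that differed between Cdk8 and Med12 knockdown (against 5), 0 in the interaction with day (against 1), 1 between the days in shNTC cells (against 5), 0 between the Cdk8 hairpins on day 13 (against 3) and 3 between the Med12 hairpins (against 5). Over all genes, the both-hairpin calls for Cdk8 on day 8 were 90 with median centring and 1893 with no background subtraction, against 1142. For Cdk8 on day 13 the count of 1 became 3 with no background subtraction, 4 by the Feature Extraction ratios or the deposited value table, 2 with probes well above background on all 24 arrays or only the groups compared, and 3 without both compressed arrays. For Med12 the count of 2 became 1 with no filter and 1 with the slide as a block. The interaction count of 1 became 2 by the Feature Extraction ratios, the value table or without both compressed arrays, and 0 with the slide as a block. Between the Cdk8 hairpins the count was 3 on day 8 with the slide as a block (against 5), and on day 13 it was 6 with no background subtraction, 5 by the Feature Extraction ratios, the value table, the all-array filter, without the compressed arrays or from Cy5 alone, and 1 with the slide as a block. Between the Med12 hairpins it was 3 with the slide as a block and 3 from Cy5 alone. Leaving out 1 array at a time gave 1 to 1 for Cdk8 on either day, 1 to 3 for Med12, 4 to 5 between Cdk8 and Med12, 1 to 2 for the interaction, 4 to 5 between days, 4 to 5 between the Cdk8 hairpins on day 8, 1 to 3 on day 13 and 4 to 5 between the Med12 hairpins. With the replicate block no count changed (1, 1, 2, 5, 1, 5, 5, 3 and 5 in the order of the report's comparisons), and the 1 member call it ended was Id4 as the mean of both Med12 hairpins (0.28, adjusted p = 0.055 in limma). Of the 15 member probes 13 were well above background on every array, so dim signal limits mainly the second probes of Bmpr1a and Id4.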
